A study of Mus musculus with 12 samples.

Results

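Solute carrier (Slc) genes encode the largest group of membrane transporters in mammals, and they were followed here through 4 groups of mouse trigeminal ganglia profiled by RNA-seq. The set took every protein-coding gene of the GENCODE M21 annotation whose symbol is Slc plus a digit, without Slc6a13, Slc6a20a, Slc14a1, Slc2a4 and Slc4a1. That left 366 genes of 371, in 49 families. Of these, 129 could be tied to a counted interval, out of 9917 genes so named in the whole series, and 93 of the 129 passed the filter on low counts and were tested, out of 4769 tested genes with a name.

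Slc proteins do not burn ATP themselves. They let a solute run down its gradient, swap it for another, or couple its uptake to the sodium or proton gradient that ATP-driven pumps set up. In a sensory ganglion they load glutamate into synaptic vesicles, supply neurons and their glia with amino acids, sugars and vitamins, set intracellular chloride and pH, and clear organic ions at the barriers that separate nervous tissue from blood.

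The trigeminal ganglion holds the cell bodies of the sensory neurons of the face and the cornea, with their satellite glia, Schwann cells, vessels and connective tissue. All 12 libraries came from 8-week-old female C57BL/6J mice, with 3 libraries a group. Stimulated injured mice (libraries ES_injury) had a keratectomy, a wound 1.5 mm wide in the centre of 1 cornea that removes epithelium and outer stroma, and then daily electrical stimulation (ES) through the skin near the orbit. Injured mice had the wound alone and were sampled 2 weeks later. Stimulated uninjured mice (libraries ES_only) had ES without a wound, and control mice had neither. The current was 300 µA at 20 Hz, given for 4 minutes a day over 14 days under isoflurane, so ES and repeated isoflurane cannot be told apart here. Surgery came with ketamine, xylazine and an analgesic that the uninjured groups are not said to have had. A sham stimulation is described, but no library carries that label, and although the series title names diabetic neuropathy, no label mentions diabetes. The labels do not say on which side of the wounded eye a ganglion lay, whether ganglia were pooled, or that libraries of a group are separate animals, so the p-values here reflect library-to-library spread only, which may be technical.

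The libraries held 7952798 to 10751547 counted fragments. The deposited intervals follow GRCm39 coordinates, while the counts fit gene positions of GRCm38, the previous mouse build. Intervals that hold no GRCm38 exon base had a median of 0.00338 CPM per kb (counts per 1000000, n = 36463 intervals), with a highest value of 521.8 CPM per kb. Each gene was therefore read from the interval that lay over exons of that gene only, for at least 100 bp, and 16 of the 129 genes carried their own symbol in the deposited tables. The counted exon of a tested Slc gene had a median of 392 bp, or 7.80% of its exon bases, and in 32 of the 93 it made up under 10% of the interval. In those 32 the whole interval had a median of 1.36 CPM per kb. Values are thus levels of part of a gene, and 21 of the 93 intervals overlap another deposited interval with which they can share fragments. Counting took no account of strand, so that antisense transcripts cannot be told apart.

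Of 77 markers of 10 cell types, 33 had a named interval and all of those were tested. Pecam1 and Tek (endothelium), Drp2 (Schwann cells), Pdgfra (fibroblasts) and Ckm (muscle) passed in none of the 5 tests, and the other markers passed in at least 1. Among the neuronal markers Uchl1, Avil, Nefm and Thy1, summed levels were 5531 to 10250 CPM in stimulated injured, 6301 to 7817 in injured, 7491 to 9128 in stimulated uninjured and 4069 to 4656 in control libraries. After injury the log2 fold changes of Uchl1 (0.92) and Thy1 (0.93) were called higher, and Avil (0.33) and Nefm (0.22) did not pass. All 4 were called higher than control under stimulation alone and in stimulated injured ganglia. Fibroblast and meningeal markers (5 genes) summed to 8257 to 9991 CPM in stimulated injured libraries, 27200 to 27490 in injured ones, 4656 to 9112 in stimulated uninjured ones and 9091 to 9964 in controls, of which the meningeal gene Ptgds alone gave 21520 to 22250 CPM in injured libraries and 5053 to 5523 CPM in controls. Schwann cell markers (6 genes) summed to 3414 to 6524 CPM in stimulated injured, 6710 to 8513 in injured, 5005 to 5366 in stimulated uninjured and 3185 to 4156 in control libraries, and 5 of them were called higher after injury. In stimulated injured against injured ganglia they differed. The log2 fold changes of Mag (-1.80), Cnp (-1.09), Fa2h (-1.05) and Mal (-0.92) were called lower, and Prx (-0.31) and Drp2 (0.135) did not pass. Macrophage markers (4 genes, all called lower in stimulated injured than in injured ganglia) summed to 94.6 to 109.8 CPM in stimulated injured, 184.6 to 219.4 in injured, 72.1 to 97.5 in stimulated uninjured and 113.3 to 131.9 in control libraries. Oligodendrocyte markers (3 genes, a cell type of the central nervous system) summed to 64.3 to 163 CPM in stimulated injured, 309 to 549.8 in injured, 101 to 194 in stimulated uninjured and 99.1 to 159.6 in control libraries. Every named marker was above 0 in every library except the muscle gene Ttn in 1. In bulk tissue, fewer cells of a type and less RNA per cell cannot be told apart, and the part of cell composition in the Slc results below was not tested.

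After injury, 28 of the 93 Slc genes differed from control at an adjusted p under 0.05 (edgeR's quasi-likelihood test, Benjamini-Hochberg adjustment over 13053 intervals), 17 higher and 11 lower. That was 30.1% of them, beside 31.0% of all intervals (19.3% higher and 11.7% lower), so the family moved about as often as other features. Their median log2 fold change was 0.073, against 0.029 over all intervals. Between stimulated injured and injured ganglia, 4 Slc genes passed, all lower, where 1.54% of all intervals passed (0.0383% higher and 1.5% lower). By unadjusted p under 0.05 there were 27 Slc genes in that comparison, or 29.0% of the 93, beside 12.2% of all intervals and 14.0% of protein-coding genes named by position. Stimulation without injury changed 25 Slc genes against control, 14 higher and 11 lower, beside 29.8% of all intervals (18.2% higher and 11.7% lower). Stimulated injured ganglia differed from control in 16 Slc genes, 8 in each direction, beside 17.2% of all intervals (12.3% higher and 4.93% lower). For 20 Slc genes the effect of stimulation in injured mice differed from its effect in uninjured mice (the interaction), 7 higher and 13 lower, beside 19.2% of all intervals (6.86% higher and 12.3% lower). By unadjusted p under 0.05, the shares of Slc genes and of all intervals were 40.9% and 42.4% for injury and 33.3% and 39.9% for stimulation alone. They were 29.0% and 31.7% for stimulated injured ganglia against control, and 34.4% and 33.4% for the interaction. In all, 44 genes passed in at least 1 of the 5 tests and 49 in none. The matching share of all intervals is not given here, so these 2 counts cannot be read as particular to Slc genes. The injury, stimulation-only and stimulated-injury comparisons with control share the same 3 control libraries.

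**Figure D1:**
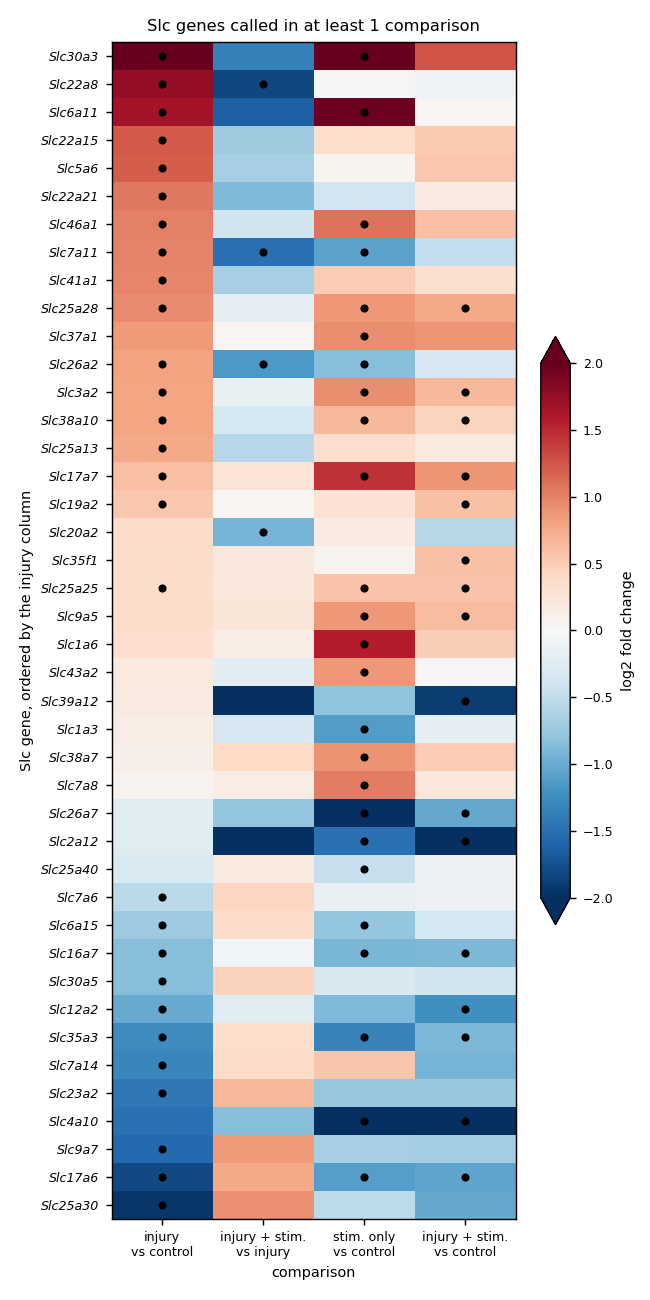
Colour gives the log2 fold change of each of the 42 Slc genes called in at least 1 of 4 comparisons (columns), with rows ordered by the injury column and colours saturated at the ends of the scale; a black dot marks an adjusted p under 0.05 (edgeR). Dots are dense in the injury and stimulation-only columns, and the injury plus stimulation against injury column holds 4 dots, all on blue cells.

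Among the families grouped here under vesicular and lysosomal transport, 2 genes of vesicular glutamate transport moved in opposite directions. Slc17a6 encodes VGLUT2 and Slc17a7 encodes VGLUT1, the proteins that fill synaptic vesicles with glutamate. Slc17a6 stood at 21.04, 53.2 and 25.6 CPM in stimulated injured libraries, 17.3, 16.2 and 26.1 CPM in injured ones, 28.2, 29.1 and 38.7 CPM in stimulated uninjured ones and 65.5, 62.3 and 79.3 CPM in controls. All 9 libraries of the other groups lay below the lowest control. Its log2 fold change was -1.80 ± 0.28 (SE, n = 3 each) after injury with an edgeR adjusted p of 0.0009, and -1.11 ± 0.27 under stimulation alone with an adjusted p of 0.00585. Both calls stood with any 1 of the 12 libraries left out. After a correction for the dependence of counts on GC content and length (GC and length correction), the second was lost (-0.57, adjusted p = 0.0963). In stimulated injured ganglia the log2 fold change against control was -1.05 (adjusted p = 0.0153), a call lost without ES_injury replicate 1 (0.068), ES_injury replicate 3 (0.083) or control replicate 3 (0.074), with the adjusted p without that library in brackets, and lost after GC and length correction (-0.68, adjusted p = 0.0686). Stimulated injured ganglia averaged 33.3 ± 17.4 CPM, with replicate 2 well above its fellows, and injured ganglia averaged 19.9 ± 5.45 CPM (SD, n = 3 each). That difference did not pass (log2 fold change 0.76, adjusted p = 0.259). The interaction did, at 1.86 ± 0.39 with an adjusted p of 0.00572. The counted stretch, 152 exon bases in the deposited interval chr7:51661431-51665476 (read on GRCm38, as all intervals here), is almost all coding, but it is short.

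Slc17a7 gave 167, 125 and 164 CPM in stimulated injured libraries, 95.3, 155 and 125 CPM in injured ones, 241, 239.6 and 191 CPM in stimulated uninjured ones and 88.7, 78.04 and 80.9 CPM in controls. Every library of the other groups was above the highest control, and those given stimulation alone were highest. Stimulation alone raised it by a log2 fold change of 1.44 ± 0.18 (adjusted p = 8.41e-05), and the call stood in all 12 refits without 1 library. After injury the log2 fold change was 0.60 ± 0.18 (adjusted p = 0.0166), which was lost in 6 of the 12 fits with a library left out, with adjusted p up to 0.114. It was also lost after GC and length correction (0.24, adjusted p = 0.24). Stimulated injured ganglia were 0.88 above control on the log2 scale (adjusted p = 0.00525, lost without ES_injury replicate 3 (0.055)). The interaction was -1.16 ± 0.25 (adjusted p = 0.00589). Its interval, chr7:45170073-45171474, lies over 1223 exon bases of the gene but overlaps another deposited interval with 287 CPM. The other 5 tested genes of this class passed in none of the 5 tests. They include Slc17a8 (VGLUT3), Slc17a5 (sialin, the lysosomal sialic acid exporter), Slc18a2 (VMAT2, which loads monoamines) and Slc15a2 (a peptide transporter). Slc18a2 had 3.68, 3.65 and 1.77 CPM in stimulated injured libraries, 0.776, 0.956 and 0 in injured ones, 2.09, 2.43 and 1.75 in stimulated uninjured ones and 1.11, 3.98 and 1.41 in controls. Its injured libraries were the lowest 3, with an adjusted p against control of 0.0594, and its interval overlaps the body of another coding gene, Pdzd8.

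**Figure D2:**
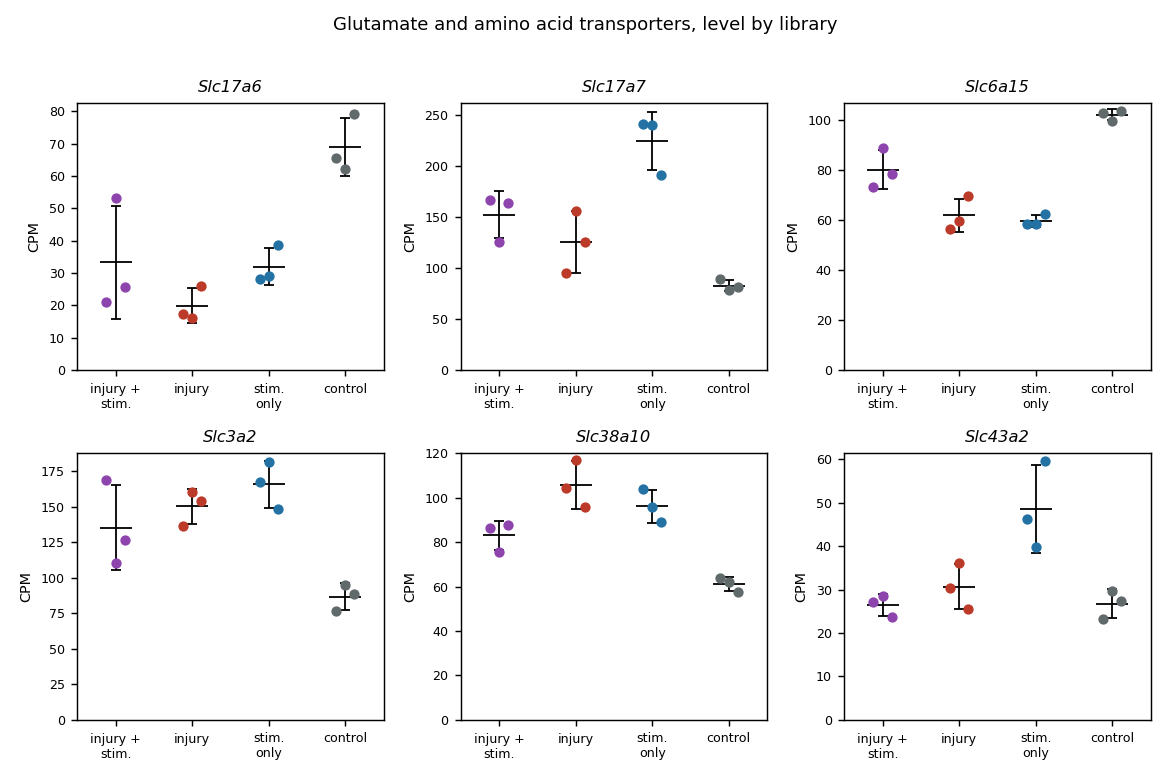
Level in CPM (linear axis from 0) of 6 glutamate and amino acid transporter genes in each library (points), with the group mean and SD (black bars, n = 3). Slc17a6 and Slc6a15 are highest in the 3 control libraries, Slc17a7 and Slc43a2 are highest under stimulation alone, and Slc3a2 and Slc38a10 are lowest in control.

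The families grouped here under amino acid and neurotransmitter transport at the plasma membrane were the largest class, with 21 genes tested. Classes were assigned to whole families and do not give the cellular site of each protein. Injury changed 7 of them, 4 higher and 3 lower, beside 31.0% of all intervals, and stimulation alone changed 10, with 7 higher and 3 lower, beside 29.8% of all intervals. The class median log2 fold change was 0.073 after injury and 0.071 under stimulation alone, against 0.029 over all intervals in each. Slc6a15 encodes a sodium-coupled transporter of branched-chain amino acids and proline in neurons. It had 73.1, 88.7 and 78.5 CPM in stimulated injured libraries, 56.6, 59.5 and 69.4 CPM in injured ones, 58.2, 58.3 and 62.5 CPM in stimulated uninjured ones and 103, 99.5 and 104 CPM in controls. Stimulated injured libraries lay between the others without overlap. It fell after injury (-0.72 ± 0.13 on the log2 scale, adjusted p = 0.00153) and under stimulation alone (-0.77 ± 0.13, adjusted p = 0.000498). Neither step of stimulated injured ganglia passed, at 0.37 against injury (adjusted p = 0.227) and -0.35 against control (adjusted p = 0.076). The interaction was 1.15 ± 0.19 (adjusted p = 0.00174) and stood in all 12 refits without 1 library. The reading rests on 232 coding bases at chr10:103417259-103418254.

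Slc3a2 encodes 4F2hc (CD98), the heavy chain that carries several light-chain amino acid exchangers to the cell surface. Its levels were 169, 111 and 126 CPM in stimulated injured libraries, 136, 159.9 and 154 CPM in injured ones, 167, 182 and 148 CPM in stimulated uninjured ones and 76.3, 94.8 and 88.5 CPM in controls. No library of the other groups came down to the control range. It rose after injury (0.79 ± 0.16 on the log2 scale, adjusted p = 0.0026), under stimulation alone (0.94 ± 0.16, adjusted p = 0.00055) and in stimulated injured ganglia (0.64 ± 0.16, adjusted p = 0.0124). The last of these was lost without ES_injury replicate 1 (0.069), ES_injury replicate 3 (0.064) or control replicate 1 (0.072) and after GC and length correction (0.39, adjusted p = 0.0827). Slc38a10, a member of the sodium-coupled neutral amino acid transporter family, had 86.2, 75.6 and 87.5 CPM in stimulated injured libraries, 105, 117 and 95.9 CPM in injured ones, 104, 95.7 and 89.2 CPM in stimulated uninjured ones and 63.9, 62.2 and 57.7 CPM in controls. Again the controls stood below all others. It rose by 0.79 ± 0.13 after injury (adjusted p = 0.0011) and by 0.65 ± 0.13 under stimulation alone (adjusted p = 0.0016). After GC and length correction the second value became 0.21 (adjusted p = 0.223).

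Several carriers rose under stimulation alone. Slc43a2 (LAT4, which exports branched-chain amino acids) had 46.3, 39.8 and 59.6 CPM in stimulated uninjured libraries and 23.2, 29.7 and 27.4 CPM in controls, a log2 fold change of 0.86 ± 0.18 (adjusted p = 0.00205). Its injured libraries, at 30.4, 36.01 and 25.6 CPM, overlapped the controls. Slc7a8 (LAT2, a light chain of 4F2hc) stood at 10.1, 8.601 and 10.4 CPM in stimulated uninjured libraries against 4.32, 5.23 and 4.802 CPM in controls (log2 fold change 1.02, adjusted p = 0.0156), a call lost without ES_only replicate 1 (0.064), control replicate 1 (0.065) or control replicate 3 (0.051) and after GC and length correction (0.61, adjusted p = 0.18). Slc38a7, a glutamine transporter, reached 12.4, 12.02 and 8.52 CPM in stimulated uninjured libraries against 6.54, 5.57 and 5.51 CPM in controls (log2 fold change 0.90, adjusted p = 0.0208), a call lost without ES_only replicate 1 (0.11), ES_only replicate 2 (0.099), control replicate 2 (0.064) or control replicate 3 (0.073). Its interval overlaps a deposited interval with 632.8 CPM. Slc1a6 (EAAT4, a glutamate uptake carrier) rose as well, with 6.03, 13.1 and 4.06 CPM in stimulated uninjured libraries against 3.104, 2.16 and 2.46 CPM in controls (log2 fold change 1.57, adjusted p = 0.00692), and lost the call without ES_only replicate 2 (0.11). Slc1a3 (GLAST), the glutamate carrier of satellite glia and astrocytes, went the other way, at 4.06, 3.42 and 2.71 CPM in stimulated uninjured libraries against 8.09, 8.08 and 5.74 CPM in controls (log2 fold change -1.11, adjusted p = 0.0276). That call was lost without ES_only replicate 2 (0.059), ES_only replicate 3 (0.076), control replicate 1 (0.092) or control replicate 2 (0.084) and after GC and length correction (-0.77, adjusted p = 0.146). Of the 3 satellite glial markers in that comparison, Cdh19 (-1.60) and Ptprz1 (-0.58) were called lower and Kcnj10 (1.03) higher, and their sum spanned 328.6 to 448 CPM in stimulated uninjured libraries and 387 to 499.5 CPM in controls.

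Slc6a11 (GAT-3), the GABA transporter of astrocytes, was low throughout. It had 1.14, 1.93 and 1.42 CPM in stimulated injured libraries, 5.102, 3.82 and 5.14 CPM in injured ones, 4.29, 10.5 and 2.63 CPM in stimulated uninjured ones and 3.104, 0.569 and 0.703 CPM in controls, from 104 coding bases. Injured libraries did not overlap controls, whereas stimulated uninjured ones did. Its log2 fold change was 1.66 ± 0.59 after injury (adjusted p = 0.0406) and 1.96 ± 0.58 under stimulation alone (adjusted p = 0.0173). The first call was lost in 7 of the 12 fits with a library left out, with adjusted p up to 0.152 and after GC and length correction (1.61, adjusted p = 0.0531). The second was lost without ES_only replicate 2 (0.18), control replicate 2 (0.077) or control replicate 3 (0.088). The interaction, -3.59 ± 0.83 (adjusted p = 0.00872), stood in all 12. The summed astrocyte markers Agt and Aldh1l1 were 26.9 to 38.7 CPM in stimulated injured, 84.5 to 118 in injured, 35.7 to 69.9 in stimulated uninjured and 15.9 to 28.9 in control libraries. Slc7a10 (Asc-1, an exchanger of serine and glycine) had 0.634, 1.29 and 0.473 CPM in stimulated injured libraries, 9.095, 5.099 and 8.75 in injured ones, 2.203, 36.6 and 2.39 in stimulated uninjured ones and 3.33, 1.82 and 1.29 in controls. Stimulated uninjured replicate 2 stood far above every other library. Only the interaction of Slc7a10 passed (-5.87 ± 1.42, adjusted p = 0.0161), and it was lost without ES_injury replicate 1 (0.06) or ES_injury replicate 2 (0.083). After injury, Slc7a14 (-1.30, adjusted p = 0.0421, lost in 5 of the 12 fits with a library left out, with adjusted p up to 0.178) and Slc7a6 (-0.55, adjusted p = 0.0384) were also lower than control. The Slc7a6 call did not stand in every refit without 1 library, nor after GC and length correction (-0.36, adjusted p = 0.167). Slc7a6 was outside the rule by which genes were named and was added after its values were seen.

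Slc7a11 encodes xCT, which pairs with 4F2hc to take up cystine in exchange for glutamate and so feeds glutathione synthesis. It had 4.56, 3.54 and 3.66 CPM in stimulated injured libraries, 10.9, 9.24 and 12.9 CPM in injured ones, 1.97, 3.64 and 2.23 CPM in stimulated uninjured ones and 6.097, 5.01 and 5.39 CPM in controls. The 4 groups did not overlap except that stimulated injured replicate 2 lay just under the highest stimulated uninjured library. Against control it rose after injury (1.00 ± 0.29 on the log2 scale, adjusted p = 0.0153) and fell under stimulation alone (-1.07 ± 0.31, adjusted p = 0.0135). Stimulated injured ganglia were lower than injured ones, with a log2 fold change of -1.49 ± 0.29 (adjusted p = 0.0148). The rise was lost without control replicate 2 (0.058), control replicate 3 (0.052) or injury replicate 3 (0.066), the fall under stimulation alone without ES_only replicate 1 (0.059) or control replicate 1 (0.058), and the fall against injury without ES_injury replicate 3 (0.16), injury replicate 1 (0.071) or injury replicate 3 (0.083). The fall under stimulation alone became -0.53 (adjusted p = 0.242) after GC and length correction. The counted stretch is 1948 exon bases, of which 62 are coding.

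Because xCT and 4F2hc form 1 exchanger and both genes were called after injury, their promoter windows are shown (RefSeq, GRCm38.p6, 250 bases before to 50 after the start). The Slc7a11 window is chr3:50443564-50443863, minus strand, and the Slc3a2 window is chr19:8713848-8714147, minus strand. In GENCODE M21 the Slc7a11 gene begins at 50443614, within its window. The Slc3a2 gene begins farther upstream, at 8723369, so its window lies inside the gene. It also lies between the ends of the counted interval, chr19:8713191-8717988. Capitals mark matches, on either strand, to TGANNNNGC, the core of the antioxidant response element, and to TGATGNAA, a core of the element bound by C/EBP and ATF factors in amino acid deprivation.
Slc7a11: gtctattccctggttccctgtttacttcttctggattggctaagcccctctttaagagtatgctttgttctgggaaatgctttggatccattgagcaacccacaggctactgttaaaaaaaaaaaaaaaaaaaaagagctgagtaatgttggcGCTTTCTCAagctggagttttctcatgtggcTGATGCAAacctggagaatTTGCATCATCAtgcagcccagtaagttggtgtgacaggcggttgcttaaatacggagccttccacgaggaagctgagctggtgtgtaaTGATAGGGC
Slc3a2: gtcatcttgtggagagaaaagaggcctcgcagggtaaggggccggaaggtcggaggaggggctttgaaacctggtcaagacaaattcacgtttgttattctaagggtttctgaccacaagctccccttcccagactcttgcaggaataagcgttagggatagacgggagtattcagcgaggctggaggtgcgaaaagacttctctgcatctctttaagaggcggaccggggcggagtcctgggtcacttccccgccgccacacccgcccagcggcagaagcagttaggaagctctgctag
The Slc7a11 window holds 3 matches of the antioxidant core and 2 of the C/EBP-ATF core, and a match of each overlaps in the run TTGCATCATCA. The Slc3a2 window holds no match of either, which says only that these letters are not in this window. The stretch at the annotated upstream end of Slc3a2 was not searched. Of 32851 promoter windows of this length in the table, 41.3% hold the antioxidant core and 3.97% the C/EBP-ATF core. Among the 75 tested Slc genes with a window (the first listed for each), 29 hold the antioxidant core, or 38.7%, and 1 holds the C/EBP-ATF core, or 1.33%.

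Transporters of organic ions, lipids and bile acids comprised 7 tested genes, and 3 rose after injury with none lower, beside 31.0% of all intervals called. The class median log2 fold change after injury was 0.95, against 0.029 over all intervals, and it was -0.70 between stimulated injured and injured ganglia, against 0.0012 over all intervals. Slc22a8 encodes OAT3, an organic anion transporter known from the kidney and from the barriers of the brain and its membranes. It gave 5.197, 11.04 and 2.48 CPM in stimulated injured libraries, 21.7, 26.2 and 18.7 CPM in injured ones, 4.87, 10.3 and 4.298 CPM in stimulated uninjured ones and 6.98, 4.32 and 8.43 CPM in controls. Only the injured libraries stood apart, and the other 3 groups overlapped. The rise after injury was 1.76 ± 0.42 (adjusted p = 0.00582) and stood with any library left out. The lower level of stimulated injured ganglia (-1.82 ± 0.42 against injury, adjusted p = 0.0374) was lost in 8 of the 12 fits with a library left out, with adjusted p up to 0.253. Of the 5 fibroblast and meningeal markers, Ptgds (2.07), Col1a2 (0.75) and Foxc1 were called higher after injury, and Dcn (0.13) and Pdgfra (-0.23) did not pass. In stimulated injured against injured ganglia Ptgds, Foxc1 and Dcn were called lower. The part of these markers in the Slc22a8 result was not tested. Its interval covers 259 coding bases of the gene, 6.50% of the interval's length, and carries the symbol of the neighbouring Slc22a6 in the deposited tables.

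Slc22a15, a carrier of zwitterions such as carnosine in human cells, had 14.6, 13.2 and 17.1 CPM in injured libraries and 6.98, 8.65 and 3.51 CPM in controls. These ranges did not overlap, and the log2 fold change was 1.22 ± 0.29 (adjusted p = 0.00506). Stimulated injured libraries stood at 10.9, 8.36 and 8.27 CPM, below all the injured ones, though the difference did not pass (adjusted p = 0.301). Slc22a21, a carnitine transporter, passed after injury with overlapping ranges (10.8, 5.95 and 4.304 CPM in injured libraries against 2.88, 2.62 and 4.69 CPM in controls, adjusted p = 0.044), and was lost in 9 of the 12 fits with a library left out, with adjusted p up to 0.281. Slc47a1 (MATE1, a proton-coupled exporter of organic cations) showed 1.27, 3.65 and 2.01 CPM in stimulated injured libraries, 6.77, 6.48 and 5.28 CPM in injured ones, 1.28, 2.32 and 1.43 CPM in stimulated uninjured ones and 4.99, 2.73 and 1.87 CPM in controls. It was highest in the 3 injured libraries but did not pass against control (adjusted p = 0.102) or in stimulated injured against injured ganglia (adjusted p = 0.152).

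**Figure D3:**
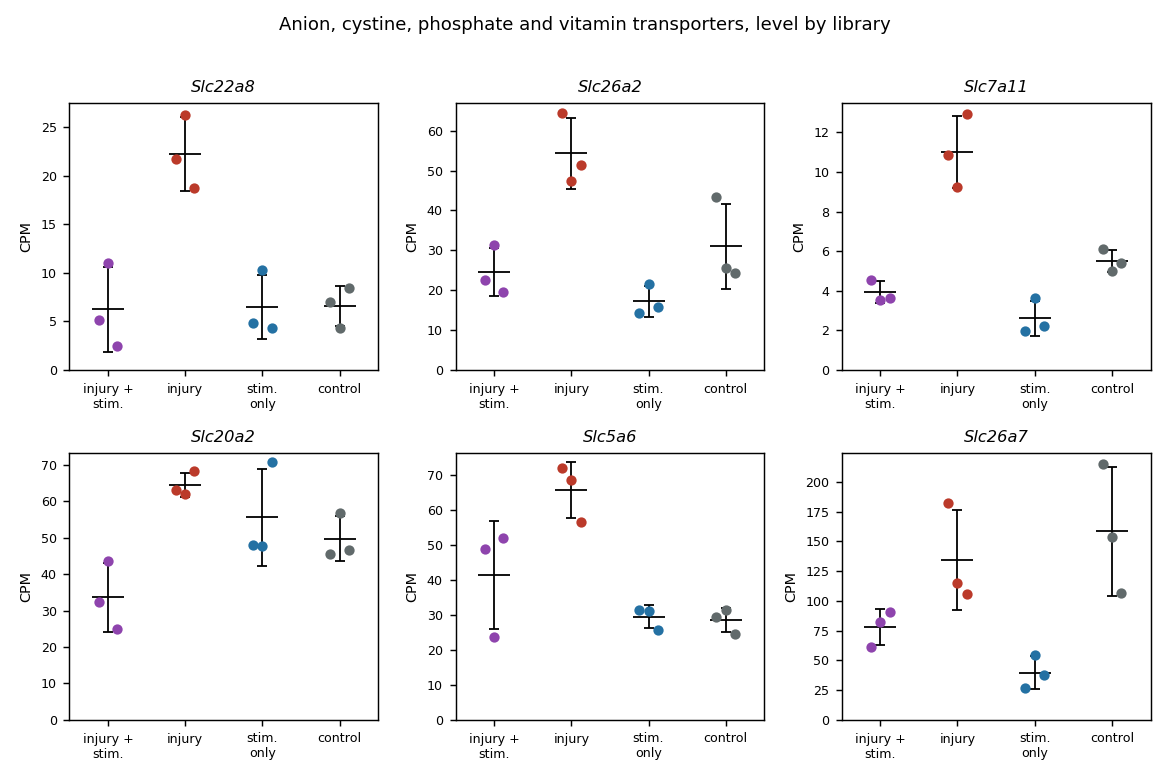
Level in CPM (linear axis from 0) of 6 transporter genes of anions, cystine, phosphate and vitamins in each library (points), with the group mean and SD (black bars, n = 3). Slc22a8, Slc26a2, Slc7a11 and Slc5a6 are highest in the 3 injured libraries, Slc20a2 is lowest in the stimulated injured ones, and Slc26a7 is lowest under stimulation alone.

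Of 15 tested transporters of inorganic ions and acid or base, 3 changed after injury, 4 under stimulation alone, 4 in stimulated injured ganglia against control and 2 in stimulated injured against injured ganglia, beside 31.0%, 29.8%, 17.2% and 1.54% of all intervals in the same order. Slc26a7, a chloride and bicarbonate transporter, had 60.9, 82 and 90.4 CPM in stimulated injured libraries, 182, 115 and 106 CPM in injured ones, 26.9, 54.6 and 37.7 CPM in stimulated uninjured ones and 215, 154 and 107 CPM in controls. Controls varied widely and overlapped the injured libraries, while both stimulated groups lay below every control. The fall was -1.99 ± 0.28 under stimulation alone (adjusted p = 0.000173) and stood with any library left out and after GC and length correction (-1.40, adjusted p = 0.00368). In stimulated injured ganglia it was -1.03 ± 0.27 against control (adjusted p = 0.0172), lost without ES_injury replicate 1 (0.14), ES_injury replicate 2 (0.07), ES_injury replicate 3 (0.057) or control replicate 1 (0.11) and after GC and length correction (-0.76, adjusted p = 0.0868). The whole 5431 exon bases of Slc26a7 were counted, under its own symbol.

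Slc26a2 encodes a sulfate transporter that supplies sulfate for proteoglycans. It had 22.7, 31.4 and 19.6 CPM in stimulated injured libraries, 64.3, 47.3 and 51.5 CPM in injured ones, 14.3, 21.6 and 15.8 CPM in stimulated uninjured ones and 43.3, 25.5 and 24.2 CPM in controls. Injured libraries were above all others, and 1 control lay apart from its fellows. Against control it was higher after injury (0.81 ± 0.24, adjusted p = 0.0168) and lower under stimulation alone (-0.85 ± 0.24, adjusted p = 0.0141). Stimulated injured ganglia were lower than injured ones, with a log2 fold change of -1.14 ± 0.24 (adjusted p = 0.0202). The rise was lost without control replicate 2 (0.079), control replicate 3 (0.088) or injury replicate 1 (0.078), the fall under stimulation alone without ES_only replicate 1 (0.055) or control replicate 1 (0.13), and the fall against injury without ES_injury replicate 3 (0.22), injury replicate 1 (0.14) or injury replicate 3 (0.065). The fall under stimulation alone was also lost after GC and length correction (-0.48, adjusted p = 0.187). Slc20a2 (PiT-2, a sodium-coupled phosphate importer) had 32.3, 43.6 and 24.9 CPM in stimulated injured libraries, 63, 62.1 and 68.3 CPM in injured ones, 47.9, 47.9 and 70.9 CPM in stimulated uninjured ones and 45.7, 56.8 and 46.7 CPM in controls. The stimulated injured libraries were below all others. The difference from injury was -0.94 ± 0.20 (adjusted p = 0.022), and it was lost without ES_injury replicate 3 (0.21), injury replicate 1 (0.093), injury replicate 2 (0.056) or injury replicate 3 (0.1) and after GC and length correction (-0.85, adjusted p = 0.0827).

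Slc12a2 encodes NKCC1, the sodium, potassium and chloride importer that keeps chloride high in sensory neurons. It stood at 7.35, 18.7 and 6.14 CPM in stimulated injured libraries, 14.3, 11.4 and 12.1 CPM in injured ones, 9.97, 9.15 and 21.7 CPM in stimulated uninjured ones and 28.9, 25.3 and 21.9 CPM in controls, all other groups lying below the controls. The log2 fold changes against control were -1.23 in stimulated injured (adjusted p = 0.0292) and -1.01 in injured ganglia (adjusted p = 0.0443). The first was lost in 5 of the 12 fits with a library left out, with adjusted p up to 0.135, and the second in 6 of the 12 fits with a library left out, with adjusted p up to 0.137. After GC and length correction they were -0.85 (adjusted p = 0.108) and -0.55 (adjusted p = 0.232). Among sodium and proton exchangers, Slc9a7 (NHE7, of the Golgi) fell after injury, with 2.33, 1.7 and 2.78 CPM in injured libraries against 6.097, 6.48 and 7.38 CPM in controls (log2 fold change -1.56 ± 0.35, adjusted p = 0.00387). Slc9a5 (NHE5, a neuronal exchanger) rose under stimulation alone, with 25.3, 25.7 and 20.1 CPM in stimulated uninjured libraries against 12.2, 12.97 and 13.6 CPM in controls (log2 fold change 0.87 ± 0.20, adjusted p = 0.00296). After GC and length correction that rise was 0.42 (adjusted p = 0.136). Slc4a10, a sodium-coupled bicarbonate transporter of neurons, was low, with 0.232, 0.992 and 1.11 CPM in stimulated uninjured libraries and 6.097, 3.75 and 2.34 CPM in controls (log2 fold change -2.33, adjusted p = 0.0203, lost without ES_only replicate 1 (0.073) or control replicate 1 (0.11)).

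Of 9 metal ion transporters tested, 2 rose and 1 fell after injury, beside 31.0% of all intervals called. Slc41a1, a magnesium transporter, had 21.4, 19.4 and 17.4 CPM in injured libraries and 9.87, 9.67 and 10.1 CPM in controls, which did not overlap (log2 fold change 0.98 ± 0.21, adjusted p = 0.00336). Slc30a5 (ZnT5, which loads zinc into the secretory pathway) had 13.1, 13.7 and 18.7 CPM in injured libraries and 27.9, 26.1 and 28.3 CPM in controls, and fell by 0.86 ± 0.20 (adjusted p = 0.00445). Both calls stood with any library left out. Slc30a3 (ZnT3, which loads zinc into synaptic vesicles) had 0.761, 1.18 and 0.827 CPM in stimulated injured libraries, 3.44, 1.59 and 2.08 in injured ones, 1.51, 4.63 and 0.557 in stimulated uninjured ones and 0.333, 0.796 and 0 in controls. Levels this close to 0 rest on few fragments. The fitted log2 fold changes of 2.61 after injury (adjusted p = 0.0303) and 2.50 under stimulation alone (adjusted p = 0.0366) were lost, the first without control replicate 1 (0.089), control replicate 3 (0.099), injury replicate 1 (0.11) or injury replicate 3 (0.053), and the second without ES_only replicate 1 (0.053), ES_only replicate 2 (0.33), control replicate 1 (0.1) or control replicate 3 (0.12). Both were also lost after GC and length correction (adjusted p = 0.0516 and 0.0928). Slc39a12 (ZIP12), a zinc importer of the nervous system, fell in stimulated injured ganglia to 0.3803, 2.36 and 1.42 CPM, against 6.54, 5.12 and 4.22 CPM in controls (-1.90 on the log2 scale, adjusted p = 0.0356), and this was lost in 6 of the 12 fits with a library left out, with adjusted p up to 0.129. It was also lost after GC and length correction (-1.60, adjusted p = 0.0837).

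Of 11 mitochondrial carriers (Slc25 family) tested, 3 rose and 1 fell after injury, beside 31.0% of all intervals called. Slc25a28 (mitoferrin-2, which imports iron) had 116, 77.8 and 87.4 CPM in stimulated injured libraries, 103, 126 and 91.2 CPM in injured ones, 108, 116 and 77.9 CPM in stimulated uninjured ones and 55.9, 56.3 and 53.6 CPM in controls. Every other library lay above the controls. It rose by 0.95 ± 0.18 after injury (adjusted p = 0.00198), 0.87 ± 0.18 under stimulation alone (adjusted p = 0.00195) and 0.76 ± 0.18 in stimulated injured ganglia (adjusted p = 0.00954). All 3 calls stood after GC and length correction, and the last was lost without ES_injury replicate 3 (0.059). Slc25a25, a calcium-regulated carrier of ATP-Mg and phosphate, was likewise above the controls in every other library, at 70.5, 69.3 and 76.7 CPM in stimulated injured, 57.8, 69.6 and 59.8 in injured, 71.9, 70.1 and 74.4 in stimulated uninjured and 47.7, 45.5 and 52.5 in control libraries. Its rise under stimulation alone was 0.57 ± 0.13 (adjusted p = 0.00339). After injury it was 0.36 ± 0.13 (adjusted p = 0.0442), lost in 11 of the 12 fits with a library left out, with adjusted p up to 0.194. It was also lost after GC and length correction (0.32, adjusted p = 0.07).

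Slc25a13 (citrin, the aspartate and glutamate carrier of the malate shuttle) was counted over all of its 3798 exon bases. It had 20.8, 27.4 and 23.98 CPM in stimulated injured libraries, 36.4, 33.9 and 36.7 CPM in injured ones, 26.6, 24.3 and 29.2 CPM in stimulated uninjured ones and 19.8, 20.6 and 22.7 CPM in controls. The injured libraries lay close together and above all others. The rise after injury was 0.76 ± 0.16 (adjusted p = 0.0029), and the lower level of stimulated injured against injured ganglia did not pass (-0.56, adjusted p = 0.0936). Slc25a30, a carrier of the uncoupling protein family, fell to 3.33, 1.28 and 4.44 CPM in injured libraries, against 10.1, 9.78 and 14.4 CPM in controls, a log2 fold change of -1.94 ± 0.43 (adjusted p = 0.00397). Its interval, 4.92% of which is exon of the gene, overlaps the body of Cog3. Slc25a40 was lower under stimulation alone (-0.47, adjusted p = 0.0281), and its sign turned after GC and length correction (0.16, adjusted p = 0.51). Slc25a46, a mitochondrial outer membrane protein with the highest level in CPM among the 93 genes, passed in none of the tests.

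Of 15 tested genes of the families grouped here under sugars, monocarboxylates and nucleosides, 2 changed after injury, beside 31.0% of all intervals. Classes follow families, and 1 of the 2 genes, Slc5a6, is a vitamin transporter of the Slc5 family. Slc5a6 (SMVT, which imports biotin and pantothenate with sodium) stood at 48.9, 23.7 and 51.98 CPM in stimulated injured libraries, 72.1, 68.7 and 56.8 CPM in injured ones, 31.5, 31.3 and 25.9 CPM in stimulated uninjured ones and 29.4, 31.5 and 24.7 CPM in controls. All injured libraries were above all others, and stimulated uninjured ones overlapped the controls. The rise after injury was 1.21 ± 0.23 (adjusted p = 0.00185), from 489 noncoding exon bases. Slc16a7 (MCT2, the lactate and pyruvate importer of neurons) had 5.197, 6.65 and 11.1 CPM in stimulated injured libraries, 9.095, 7.22 and 7.498 CPM in injured ones, 8.47, 5.18 and 9.07 CPM in stimulated uninjured ones and 12.1, 17.8 and 13.1 CPM in controls. It passed against control in all 3 groups, with log2 fold changes of -0.90 (adjusted p = 0.0465), -0.85 (adjusted p = 0.0397) and -0.91 (adjusted p = 0.0277) in that order. In the same order, these calls were lost in 10, 6 and 3 of the 12 fits with a library left out. None of these calls stood after GC and length correction, where the adjusted p-values were 0.166, 0.14 and 0.47. Slc2a12 (GLUT12, a glucose transporter) was low, at 0.254, 0.965 and 0.354 CPM in stimulated injured libraries against 2.55, 2.39 and 3.397 CPM in controls (-2.35 on the log2 scale, adjusted p = 0.0094), lost without ES_injury replicate 3 (0.06). The glucose transporter genes Slc2a1 and Slc2a3 were named but failed the low-count filter. Across the 36 named genes that failed it, no library exceeded 3.42 CPM, which for short counted stretches does not show that a gene is silent.

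Among 6 tested genes of the vitamin and cofactor families, which leave out Slc5a6, Slc19a2 (a thiamine transporter) passed after injury with 27.3, 31.6 and 32.2 CPM in injured libraries against 17.96, 22.98 and 21.7 CPM in controls (log2 fold change 0.54, adjusted p = 0.0208), a call lost in 7 of the 12 fits with a library left out, with adjusted p up to 0.101. Slc46a1 (the proton-coupled folate transporter) rose after injury (1.01, adjusted p = 0.0305) and under stimulation alone (1.08, adjusted p = 0.0207). The first call was lost in 6 of the 12 fits with a library left out, with adjusted p up to 0.14, and the second without ES_only replicate 1 (0.063), ES_only replicate 2 (0.097) or control replicate 1 (0.11). Both were also lost after GC and length correction (adjusted p = 0.0687 and 0.0977). Slc23a2, a sodium-coupled importer of ascorbate into neurons, fell after injury to 3.66, 1.91 and 3.33 CPM, against 8.31, 10.6 and 4.92 CPM in controls (-1.42, adjusted p = 0.0342), lost in 5 of the 12 fits with a library left out, with adjusted p up to 0.14. Of the 2 tested Slc35 genes, Slc35a3, a Golgi transporter of UDP-N-acetylglucosamine, had 7.65, 5.63 and 8.75 CPM in injured libraries, 6.49, 4.96 and 9.07 CPM in stimulated uninjured ones and 15.4, 17.8 and 19.3 CPM in controls. Controls were above all the others. It fell by 1.26 ± 0.30 on the log2 scale after injury (adjusted p = 0.00524) and fell by 1.34 ± 0.29 under stimulation alone (adjusted p = 0.00261). The second became -0.63 (adjusted p = 0.171) after GC and length correction, and the interval, with a counted GC content of 30.6%, overlaps the body of Mfsd14a.

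The GC content of the counted exon went with the stimulation effect. Across the 93 genes, its rank correlation with the log2 fold change was 0.51 for stimulation alone, 0.16 for injury and -0.44 for the interaction, and across all 4769 named genes it was 0.51, 0.28 and -0.44. These are descriptions across genes, which share libraries and are not independent. Removing a smooth trend on GC content and length from each library left 20 of the 28 injury calls and 12 of the 25 calls under stimulation alone. In that fit the calls under stimulation alone split into 12 higher and 5 lower, and those in stimulated injured ganglia against control into 5 higher and 3 lower. Whether this dependence is technical was not tested. All 14 injury calls that stood with any 1 library left out also stood after the correction. They are the rises of Slc22a8, Slc22a15, Slc5a6, Slc41a1, Slc25a28, Slc3a2, Slc38a10 and Slc25a13 and the falls of Slc17a6, Slc25a30, Slc9a7, Slc35a3, Slc30a5 and Slc6a15. Under stimulation alone, 7 genes met both conditions, with Slc17a7, Slc3a2, Slc25a28, Slc43a2 and Slc25a25 higher and Slc26a7 and Slc6a15 lower. In stimulated injured against injured ganglia, and in stimulated injured ganglia against control, no Slc call stood in all 12 fits.

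**Figure D4:**
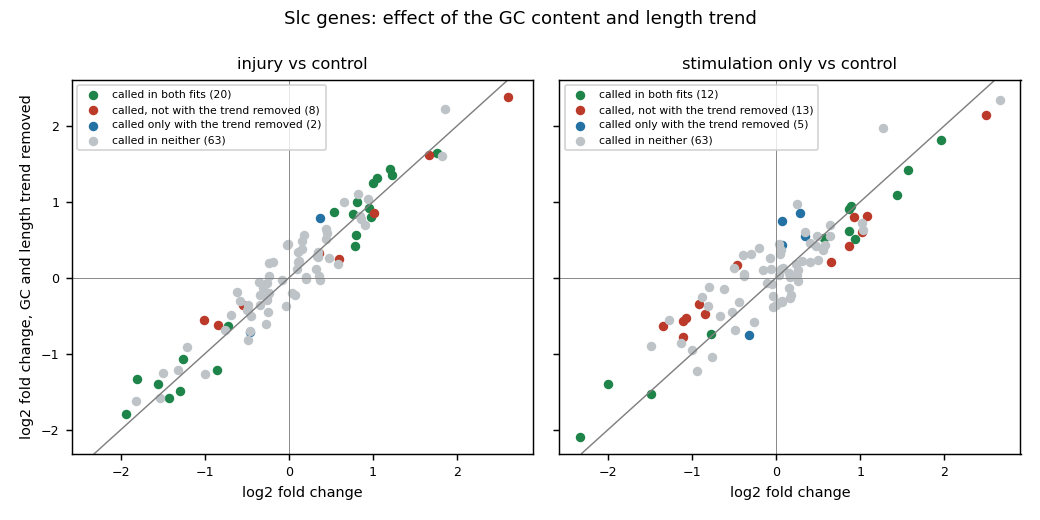
Each point is 1 of the 93 Slc genes, with its log2 fold change (x axis) and the same value after GC and length correction (y axis), for injury (left) and stimulation alone (right) against control; the grey diagonal marks equality and colours give the calls at adjusted p under 0.05. Of the called genes, 20 of 28 keep their call on the left and 12 of 25 on the right.

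Per kb of counted exon, the highest mean levels over the 12 libraries were those of Slc3a2 (344 CPM per kb), Slc6a15 (327), Slc17a6 (254), Slc25a17 (202), Slc25a20 (154), Slc38a10 (127), Slc17a7 (119), Slc25a25 (116), Slc37a3 (98.9) and Slc5a6 (84.6). Fragments of 150-base reads that only touch a short stretch are counted in full, so short stretches read too high on this scale. Slc25a17 (a peroxisomal carrier), Slc25a20 (the carnitine and acylcarnitine carrier) and Slc37a3 passed in none of the 5 tests.

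Other transporter families were read beside the Slc genes. Of 8 tested subunits of the vacuolar ATPase, a proton pump that powers vesicular uptake, 1 rose after injury, beside 31.0% of all intervals called. Under stimulation alone 2 rose and 1 fell, beside 29.8% of all intervals. In stimulated injured ganglia against control 1 rose, beside 17.2% of all intervals. Among 17 tested ABC transporters, 1 rose and 4 fell after injury, beside 31.0% of all intervals called. The rise was that of Abca2, a lipid transporter abundant in myelinating glia (1.78 ± 0.20, adjusted p = 0.000143), and the falls were those of Abcd3, Abca1, Abca8b and Abcg2. Of 6 tested Mfsd genes, Mfsd2a (a transporter of lysophosphatidylcholine) and Mfsd12 rose after injury, and neither of the 2 tested Slco genes did, beside the same 31.0% of all intervals called.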

How the data were processed

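Poly(A)-selected RNA of trigeminal ganglia was sequenced as 150 bp paired-end reads, per the labels' protocols. The deposited tables hold raw counts per annotated interval, made by the authors with featureCounts 2.0.6 on Ensembl release 110 intervals (GRCm39), without strand and with fragments that overlap several intervals counted in each, per the file headers. FastQC, Salmon 1.10.2 and DESeq2 are named in the submitters' processing notes. The sources used here give no aligner version or reason for the mismatch of builds.

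All counts of the 12 libraries were fitted in 1 model of 4 groups with edgeR 4.0.16 (R 4.3.3; TMM factors, filterByExpr, robust quasi-likelihood, 13053 of 56941 intervals kept), with Benjamini-Hochberg adjustment over all of them. A gene was called at an adjusted p under 0.05, and CPM values are scaled by TMM. The common biological coefficient of variation was 0.235. The fit was tested on simulated data with known changes. Those data gave every interval the same coefficient of variation, 0.235, and had changes only in well-counted intervals. The simulation therefore does not cover genes with few fragments or with uneven spread. Counted fragments carry no molecular identifiers, so they are not independent molecules.

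The members, the transport classes and the marker and partner lists were chosen with earlier results of these data known. The rule for naming Slc genes took those with a mean of at least 1 CPM. They were, per comparison, the 10 called genes with the highest and the 10 with the lowest log2 fold changes, the 10 highest levels per kb, and up to 3 genes per class with the smallest p. Slc7a6, Slc17a5, Slc17a8, Slc15a2, Slc25a46, Slc2a1 and Slc2a3 are mentioned outside that rule. Slc13a4, Slc35f1 and Slc37a1 met it and are not described. Alternatives were DESeq2 1.42.0, RLE factors, no filter, fits of only the groups compared, a replicate block, a GC and length correction (a smooth trend of counts on GC content and counted length, fitted and removed per library), 300 bp in place of 100 bp for naming, counts summed over a gene's intervals, and each library left out.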

Additional observations from a re-analysis of the deposited data

Results flagged for a closer look

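For 20 Slc genes the change that went with stimulation in injured mice differed from the change in uninjured mice, by the interaction term of the edgeR fit at an adjusted p under 0.05. These were 21.5% of the 93 tested Slc genes, beside 19.2% of all intervals (6.86% higher and 12.3% lower). The interaction is the change in injured mice minus the change in uninjured mice, on the log2 scale. It was positive for Slc1a5 (2.23), Slc17a6 (1.86), Slc35a3 (1.70), Slc9a7 (1.53), Slc26a7 (1.21), Slc6a15 (1.15) and Slc25a40 (0.66). It was negative for Slc7a10 (-5.87), Slc30a3 (-3.84), Slc6a11 (-3.59), Slc22a8 (-1.79), Slc46a1 (-1.48), Slc17a7 (-1.16), Slc41a1 (-1.16), Slc20a2 (-1.10), Slc3a2 (-1.09), Slc43a2 (-1.07), Slc25a28 (-1.05), Slc38a10 (-1.001) and Slc25a13 (-0.91).

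The glutamine carrier gene Slc1a5 (ASCT2) passed this test alone, with 2.41, 7.396 and 1.89 CPM in stimulated injured libraries, 2.11, 0.744 and 2.22 CPM in injured ones, 1.62, 1.99 and 2.63 CPM in stimulated uninjured ones and 4.77, 3.98 and 3.87 CPM in controls, and lost it in 9 of the 12 fits with a library left out, with adjusted p up to 0.132. For 8 of the 20 genes the interaction passed with any 1 library left out (Slc17a6, Slc17a7, Slc35a3, Slc38a10, Slc3a2, Slc43a2, Slc6a11 and Slc6a15), and 5 of these also passed after GC and length correction (Slc17a6, Slc17a7, Slc3a2, Slc6a11 and Slc6a15).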

How the results depend on the processing

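The counted stretch covers part of most of these genes, the libraries are 3 a group, and 7952798 to 10751547 fragments a library leave genes near 1 CPM with few fragments each. For the called changes of named genes, 1440 values under the alternatives kept direction and side of the threshold, 438 kept direction and lost the call, and 2 turned sign. Both are Slc25a40 under stimulation alone, at 0.16 after GC and length correction and 0.17 with the replicate block added to that.

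Counts of called Slc genes ranged, with 1 library left out, from 17 to 33 for injury, 0 to 6 for stimulated injured against injured, 16 to 26 for stimulation alone, 0 to 25 for stimulated injured against control and 12 to 24 for the interaction. Shares of all intervals called in the refits of this section are not given here. The shifts therefore cannot be read as particular to Slc genes. Without ES_injury replicate 3 no Slc gene was called in stimulated injured ganglia against injury or against control, and 12 were in the interaction. Stimulated injured against injured also gave 0 without injury replicate 1 or 3 and 2 without injury replicate 2. Against control, stimulated injured ganglia gave 4 without ES_injury replicate 1, 25 without ES_injury replicate 2, and 5, 8 and 6 without control replicates 1, 2 and 3. Injury gave 17 without control replicate 2 or injury replicate 2 and 18 without injury replicate 1 or 3. Stimulation alone gave 16 without ES_only replicate 2 or control replicate 1, and the interaction 12 without ES_only replicate 1 or 2.

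Stimulated injured against injured gave 9 calls with DESeq2 and 9 without the low-count filter, 2 higher and 7 lower each. Naming by 300 bp left 16 calls under stimulation alone and 13 in the interaction. Fitting only the groups compared gave 8 in stimulated injured ganglia against control, 2 higher and 6 lower. After GC and length correction there were 8 calls in stimulated injured ganglia against control and 10 in the interaction. A further restriction, chosen after seeing the data, kept the 20 genes whose counted exon is at least 50% of the interval. Of these, 6 (30.0%) were called for injury, 0 for stimulated injured against injured and 7 (35.0%) for stimulation alone. Stimulated injured against control gave 7 (35.0%) and the interaction 5 (25.0%). Over all 93 genes the shares were 30.1%, 4.3%, 26.9%, 17.2% and 21.5% in the same order. The causes of these and the other shifts were not tested. The median of all intervals moved by less than 0.1 on the log2 scale under every scaling.

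With the replicate number as a block there were 23 calls for injury, 4 for stimulated injured against injured, 24 for stimulation alone, 10 for stimulated injured against control and 15 for the interaction. The block together with the GC and length correction gave 13 for stimulation alone, 7 for stimulated injured against control and 7 for the interaction. No label says that equal numbers pair libraries. Deviations of same-numbered libraries correlated at -0.32 to 0.25, and 1 of 18 pairs exceeded 0.1. Other pairs of libraries correlated at -0.47 to 0.52, and 5 of 36 exceeded 0.1. With 3 libraries a group, these values cannot show whether samples were paired.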
